A study of Mus musculus with 4 samples.

Results

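The genes described here encode the proteins of the cytosolic ribosome. They were taken as the array's gene names made of Rpl or Rps and a number with at most 1 of the suffixes a, x and l, together with Rplp0, Rplp1, Rplp2 and Rpsa. The rule found 80 gene names on 183 probes, of 34844 gene names in all. Of the 80, 49 encode proteins of the large (60S) subunit and 31 proteins of the small (40S) subunit. The brightest probe of each gene stood for the gene, and 79 of the 80 had a probe well above background on at least 1 array, among 22802 such gene names. The chosen probe was well above background on all 4 arrays for 78 of them. Rpl10l passed through the p53-/- array alone and Rpl39l was not well above background on any array.

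The 4 arrays held RNA of bone marrow cells that lack lineage markers and carry Sca-1 and cKit (LSK cells, a fraction that holds haematopoietic stem and early progenitor cells). The genotypes were Aspp1-/-p53-/-, made from Mx1-Cre(+)Aspp1-/-p53flox/flox mice, p53-/-, made from Mx1-Cre(+)p53flox/flox mice, Aspp1-/-, and WT. Mx1-Cre is an interferon-inducible recombinase transgene, and pIpC is the synthetic RNA that switches it on. All mice were male C57BL/6 and all 4 genotypes, WT included, had 5 intraperitoneal doses of pIpC on alternate days from 8 weeks of age, with cells collected 4 weeks later at 12 weeks. The design text gives 400 μg per dose, whereas the sample labels give 403 μg for Aspp1-/-p53-/-, 402 μg for p53-/-, 401 μg for Aspp1-/- and 400 μg for WT. RNA of 3 mice was pooled for each array, so there was 1 array per genotype and no spread between animals, and no p-value was computed between 2 arrays. The labels name Mx1-Cre for the p53-/- and Aspp1-/-p53-/- mice and not for the others, so loss of p53 and presence of the transgene cannot be told apart.

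Signals are Agilent processed signals (background-subtracted fluorescence). They were put on a log2 scale after each array's 75th percentile was set to 0, which is called the scaled log2 level here. The 75th percentiles were 537 in Aspp1-/-p53-/-, 580 in p53-/-, 599 in Aspp1-/- and 571 in WT, and no gene spot was saturated. Between 51.2% and 54.1% of gene spots were well above background. The targeted genes went with their labels: Ppp1r13b, which encodes ASPP1, had log2 differences of -2.59 in Aspp1-/-p53-/- and -2.62 in Aspp1-/- against WT, and Trp53 had -2.03 in Aspp1-/-p53-/- and -2.18 in p53-/- against WT. The LSK markers Kit, Ly6a, Cd34, Flt3, Slamf1 and Procr were well above background on all 4 arrays. Markers of granulocytes were also present, and all 6 were lower in Aspp1-/-p53-/- than in WT, with a median log2 difference of -1.77. In bulk RNA of this kind, fewer cells of a type and less RNA per cell cannot be told apart.

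Most ribosomal proteins are needed in equal numbers for each ribosome, and ribosomal protein mRNAs are among the most abundant of growing cells. Most of these mRNAs begin with a run of pyrimidines at the cap (a 5′ terminal oligopyrimidine, or TOP, motif) through which mTOR signalling controls their translation. When ribosome assembly is disturbed, free Rpl5 and Rpl11 bound to 5S rRNA hold back Mdm2, the ubiquitin ligase that degrades p53, and inherited loss of 1 copy of several of these genes causes Diamond-Blackfan anaemia, a failure of red cell production. Most of the genes have 1 functional copy and many processed pseudogenes, and a few have an expressed paralogue in testis, muscle or stressed cells.

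The TOP motif was looked for at the RefSeq start sites. A window around the annotated start (build GRCm38.p6) was available for 60 of the 80 genes. The windows shown are of genes named below for the size of a difference and of 1 paralogue pair. Each runs from 15 bases before to 15 bases from the start, 5′ to 3′, with the longest run of pyrimidines in capitals.
Rpl5 (chr5:107900513-107900542, plus strand): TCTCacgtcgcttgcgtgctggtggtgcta
Rps18 (chr17:33955651-33955680, minus strand): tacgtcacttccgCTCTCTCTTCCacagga
Rpl13a (chr7:45128731-45128760, minus strand): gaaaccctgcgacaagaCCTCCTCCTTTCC
Rpl7a (chr2:26910792-26910821, plus strand): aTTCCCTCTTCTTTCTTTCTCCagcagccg
Rpl27a (chr7:109519180-109519209, plus strand): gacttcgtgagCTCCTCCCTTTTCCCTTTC
Rps15 (chr10:80292416-80292445, plus strand): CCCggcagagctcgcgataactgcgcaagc
Rpl4 (chr9:64173372-64173401, plus strand): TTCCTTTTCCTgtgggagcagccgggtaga
Rps27 (chr3:90213634-90213663, minus strand): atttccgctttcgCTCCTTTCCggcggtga
Rps27l (chr9:66946071-66946100, plus strand): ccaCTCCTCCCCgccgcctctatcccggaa
Within the window the run had 21 pyrimidines in Rpl7a, 19 in Rpl27a, 13 in Rpl13a and 11 each in Rps18 and Rpl4, against 4 in Rpl5 and 3 in Rps15. A run of at least 8 pyrimidines between 20 bases before and 30 after the start was present in 30 of the 60 member windows (50%) and in 18.8% of 27025 gene promoters. The start itself was a C followed by at least 4 pyrimidines in 12 of 60 (20%), against 2.49% of all promoters. Of the windows shown, only those of Rps18 and Rps27 have this form. The marked run need not include the start. In Rpl4, Rpl5, Rps15 and Rps27l the run ends before the start, and in Rpl13a it begins after the start. The ETS-type motif CCGGAAG, on either strand of the 300 bases around the start, was present in 25 of 60 (41.7%), against 9.12%. The motif AAGATGG, on either strand, was present in 13.3% of member promoters and 6.48% of all, and TATAAA, on either strand, in 8.33% and 14.2%. These are matches of letters to annotated starts, which can lie some bases from the start used in LSK cells.

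The 76 members other than the 4 tissue-restricted or inducible paralogues (Rpl3l, Rpl10l, Rpl39l and Rps27l) were among the brightest genes of the array. Their mean scaled log2 level was lowest for Rps21, at 6.50, and the median member stood at the 99.3rd percentile of all genes, with the lowest at the 96.6th. Together the brightest probes of the 79 detected members, paralogues included, held 8.70% of the summed signal of all genes in Aspp1-/-p53-/-. They held 8.67% in p53-/-, 8.58% in Aspp1-/- and 8.82% in WT. The share was highest in WT and lowest in Aspp1-/-. Probe signals are not molecule numbers, since probes differ in how strongly they respond.

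Across the 4 genotypes these 76 genes hardly moved. The range of a member over the 4 arrays, on the scaled log2 scale, had a median of 0.098 and went from 0.031 for Rpl15 to 0.250 for Rpl5. The scanner software sets a 10% error on each bright signal, which comes to 0.20 (log2) for a difference between 2 arrays, and spots of the same probe on 1 array differed by an SD of 0.055 to 0.057. Of the 380 differences of these members in 5 comparisons, 5 were larger than the scanner's error. They included Rpl5 and Rps18 in Aspp1-/-p53-/- against WT, Rpl13a in Aspp1-/- against WT, and Rps15 in Aspp1-/-p53-/- against Aspp1-/-.

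**Figure D1:**
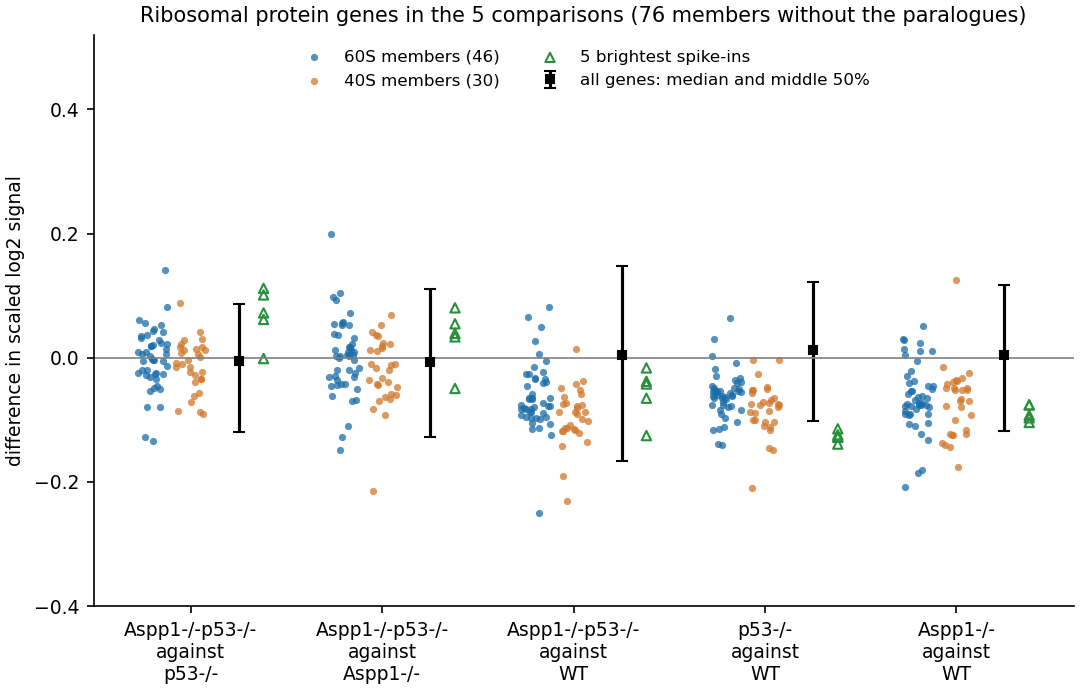
Differences in scaled log2 signal of the 76 members without the paralogues in the 5 comparisons, with 1 point per gene (blue 60S, orange 40S), the median and middle 50% of all genes (black) and the 5 brightest spike-in RNAs (green). The members lie close together between -0.250 and 0.199, and their points sit mostly below 0 in the 3 comparisons with WT and around 0 in the 2 comparisons between mutants; with spike-in scaling the median turns positive for p53-/- and Aspp1-/- against WT.

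By the rule of at least 2-fold, no member of 78 passed in Aspp1-/- against WT, where 4.01% of all genes did. In p53-/- against WT 1 of 79 passed, Rpl10l, beside 6.91% of all genes. In Aspp1-/-p53-/- against WT 1 of 78 passed, Rpl3l, beside 7.87%. In Aspp1-/-p53-/- against p53-/- 2 of 79 passed, Rpl3l and Rpl10l, beside 7.98%. In Aspp1-/-p53-/- against Aspp1-/- 1 of 78 passed, Rpl3l, beside 6.96%. The 76 widely expressed members therefore gave 0 of these calls, and both genes that passed are dim paralogues described below. Of 165 other protein-coding genes in the members' signal range, 0 passed in Aspp1-/- against WT and 0 in p53-/- against WT. In Aspp1-/-p53-/-, 6 of the 165 were at least 2-fold lower against WT, 2 against p53-/- and 4 against Aspp1-/-, and 0 were 2-fold higher.

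The spread of the members was also narrow beside that of all genes. The middle 50% of members spanned 0.051 in Aspp1-/-p53-/- against WT, 0.038 in p53-/- against WT and 0.053 in Aspp1-/- against WT. For all genes, most of which are much dimmer, the same widths were 0.314, 0.224 and 0.236. In the members' signal range they were nearer to the members' own. The 693 other gene names there had 0.104, 0.075 and 0.091, and the 165 of them with a protein-coding symbol 0.142, 0.098 and 0.140. Among these 165 genes the median range over the 4 arrays was 0.134, against 0.098 for the members. The 208 other gene names at scaled log2 levels from 8 to 9 lay closer to the members. Their middle 50% ran from -0.099 to -0.032 in Aspp1-/-p53-/- against WT, -0.101 to -0.047 in p53-/- and -0.102 to -0.031 in Aspp1-/-. That of the members ran from -0.101 to -0.049, -0.089 to -0.051 and -0.092 to -0.039 in the same order.

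The members shared 1 small displacement, on a scale under the error of a single difference. Against WT, 72 of 78 members lay below 0 in Aspp1-/-p53-/- (49.4% of all genes lay below 0), 75 of 79 in p53-/- (46.7% of all genes) and 68 of 78 in Aspp1-/- (49.0%), but under quantile normalization these counts were 37, 29 and 37, and with scaling on spike-in RNA 57, 7 and 24. The median member difference was -0.080 in Aspp1-/-p53-/- against WT, -0.065 in p53-/- against WT and -0.068 in Aspp1-/- against WT, beside 0.004, 0.013 and 0.004 for all genes. Quantile normalization brought the 3 member medians to 0.000, 0.004 and 0.000, and spike-in scaling to -0.022, 0.061 and 0.021. The 3 comparisons share the WT array, so a member that is bright on that array is low in all 3. Under 75th-percentile scaling, the WT array held the highest level of 64 of the 76 members (84.2%). Of the 165 other bright protein-coding genes, 48.5% were highest there, but these genes were not matched to the members in level.

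**Figure D2:**
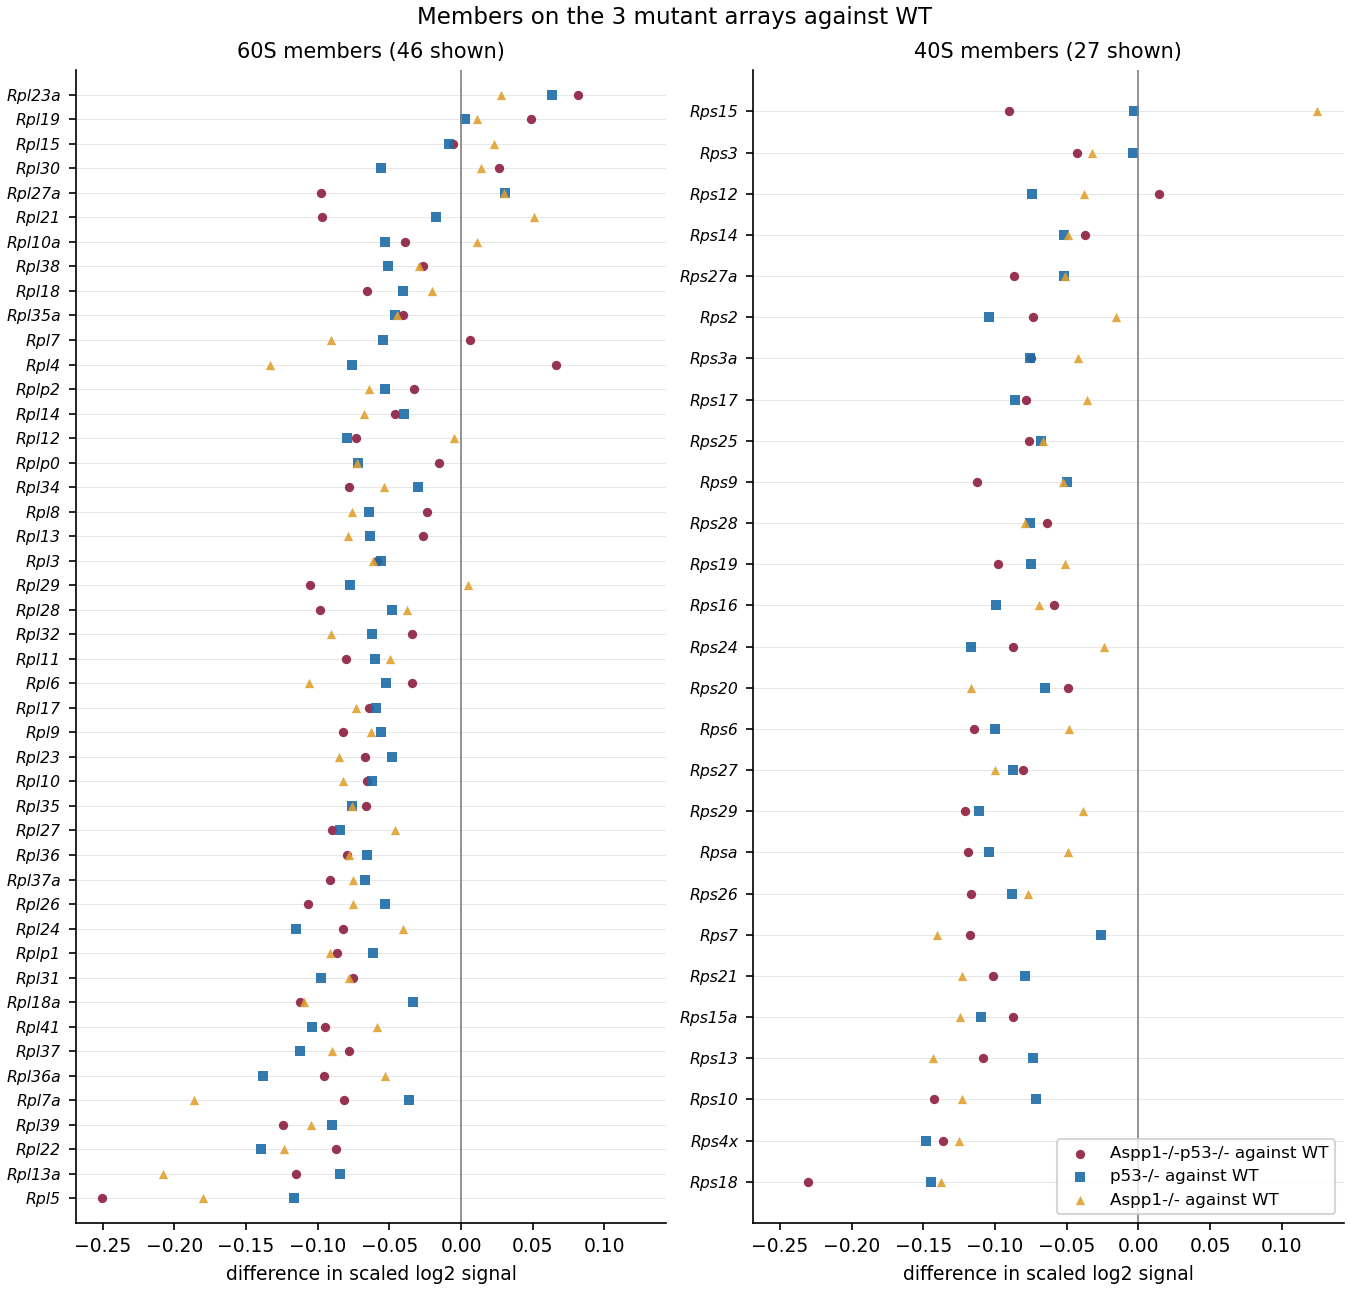
Difference in scaled log2 signal of 73 of the 76 members on the Aspp1-/-p53-/- (circles), p53-/- (squares) and Aspp1-/- (triangles) arrays against the same WT array, ordered by the mean of the 3 values within the 60S (left) and 40S (right) subunit. Rpl5 and Rps18 are at the low end and Rpl23a and Rps15 at the high end of their subunits.

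Other genes of the same brightness were displaced in the same direction. At scaled log2 levels from 8 to 9, 208 other gene names had a median of -0.064 in Aspp1-/-p53-/- against WT, -0.072 in p53-/- against WT and -0.069 in Aspp1-/- against WT, and the 38 members at that level had -0.078, -0.065 and -0.060. Of those 208 gene names, 88.5%, 95.2% and 88.5% lay below 0 in these comparisons, beside 36, 37 and 34 of the 38 members. Those gene names include many without a current protein-coding symbol. Of the 79 brightest member probes, 28 share a run of at least 30 bases with a probe under another gene name. Some of the other names may therefore report transcripts of the members themselves. The 165 other genes with a protein-coding symbol, over the whole signal range of the members, had medians of -0.033, -0.049 and -0.038. The 5 brightest spike-in control probes, each with 35 spots per array, had medians of -0.042, -0.127 and -0.093. What brightness and array-wide scaling contribute to the members' displacement was not tested.

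**Figure D3:**
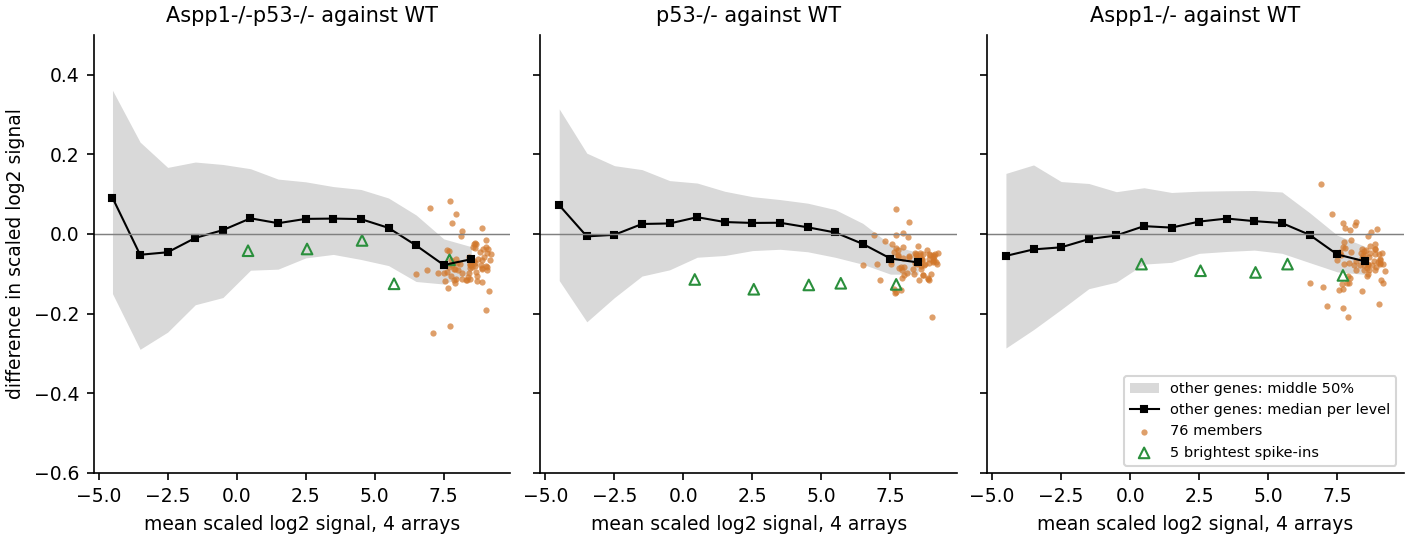
Difference in scaled log2 signal against the mean scaled log2 signal over the 4 arrays for the 3 comparisons with WT, with the median (black line) and middle 50% (grey) of other genes in level bins of 1, the 76 members (orange) and the 5 brightest spike-ins (green). Under this 75th-percentile scaling the black line bends below 0 above a level of 6, and the members up to a level of 9 lie along it. The last bin of other genes is that from 8 to 9, so the 11 members above 9 have no line beside them. The other genes include names without a current protein-coding symbol.

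Between mutant arrays the members lay about evenly on both sides of 0 under 75th-percentile scaling. In Aspp1-/-p53-/- against p53-/-, 42 of 79 members lay below 0 (51.7% of all genes) with a median of -0.004, and in Aspp1-/-p53-/- against Aspp1-/- 42 of 78 (51.8%) with a median of -0.010. With spike-in scaling these counts were 75 and 61 and the medians -0.073 and -0.042, and with quantile normalization 39 and 36.

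The subunits gave nearly equal values. Median differences of the 60S members were -0.076 in Aspp1-/-p53-/- against WT, -0.060 in p53-/- against WT and -0.072 in Aspp1-/- against WT. Those of the 40S members were -0.088, -0.076 and -0.066. All 31 40S members lay below 0 in p53-/- against WT, as did 44 of 48 60S members. In that comparison 46.7% of all genes lay below 0, and 95.2% of the 208 other gene names at scaled log2 levels from 8 to 9. These counts carry the same dependence on scaling as those of all members.

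The proteins that bind Mdm2 when ribosome assembly fails were examined one by one. Rpl5, a carrier of 5S rRNA, had processed signals of 69305 in Aspp1-/-p53-/-, 82191 in p53-/-, 81165 in Aspp1-/- and 87622 in WT. Its scaled log2 levels were 7.01, 7.15, 7.08 and 7.26 in the same order, lowest in Aspp1-/-p53-/- and highest in WT. The difference from WT was -0.25 in Aspp1-/-p53-/-, the lowest of the 76 members in that comparison and a 1.19-fold lower level.
Rpl11, its partner on 5S rRNA, had 274138 in Aspp1-/-p53-/-, 300561 in p53-/-, 312374 in Aspp1-/- and 308086 in WT. Its log2 differences from WT were -0.08 in Aspp1-/-p53-/-, -0.06 in p53-/- and -0.05 in Aspp1-/-, about the median of all members.
Over the 10 members of this list (Rpl5, Rpl11, Rpl23, Rpl26, Rps3, Rps7, Rps14, Rps27, Rps27l and Rps27a), the median difference from WT was -0.081 in Aspp1-/-p53-/-, -0.052 in p53-/- and -0.063 in Aspp1-/-. None of the 10 passed 2-fold in any comparison. Rps7, a 40S protein that binds Mdm2, was at -0.12 in Aspp1-/-p53-/-, -0.03 in p53-/- and -0.14 in Aspp1-/- against WT. Rps3, a 40S protein also known in DNA repair, was at -0.04, -0.004 and -0.03.

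Genes mutated in Diamond-Blackfan anaemia, with Rps14, the haploinsufficient gene of the 5q- syndrome, numbered 19. Their median difference from WT was -0.081 in Aspp1-/-p53-/-, -0.076 in p53-/- and -0.051 in Aspp1-/-. Rps19, the gene most often mutated in that anaemia, had signals of 96236 in Aspp1-/-p53-/-, 105718 in p53-/-, 110886 in Aspp1-/- and 109499 in WT, which gave log2 differences from WT of -0.10, -0.07 and -0.05. Rpl15 differed from WT by -0.01, -0.01 and 0.02, the steadiest of all 76. Rps10, Rps24 and Rps26 lay between -0.02 and -0.14 in the 3 comparisons with WT. None of the 19 was past 2-fold.

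The stalk proteins Rplp0, Rplp1 and Rplp2, which recruit elongation factors to the 60S subunit, moved little. Rplp0 differed from WT by -0.02 in Aspp1-/-p53-/-, -0.07 in p53-/- and -0.07 in Aspp1-/-. Rplp1 was at -0.09, -0.06 and -0.09 and Rplp2 at -0.03, -0.05 and -0.06.

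Of members with a described role outside protein synthesis or in blood formation, Rpl22, needed for the development of αβ T cells in mice, was at -0.09 in Aspp1-/-p53-/-, -0.14 in p53-/- and -0.12 in Aspp1-/- against WT. Rpl13a, which after phosphorylation represses translation of a set of inflammatory mRNAs, had scaled log2 levels of 7.86 in Aspp1-/-p53-/-, 7.90 in p53-/-, 7.77 in Aspp1-/- and 7.98 in WT. Its difference of -0.21 in Aspp1-/- against WT was the lowest of the 76 in that comparison, but rests on 1 of 3 probes: the other two, both dimmer, were at 0.12 and -0.06. Rps6, the 40S protein phosphorylated downstream of mTOR, was at -0.11, -0.10 and -0.05, and Rpsa, also known as the laminin receptor, at -0.12, -0.10 and -0.05. Rpl38, which in the mouse embryo is needed for translation of Hox mRNAs, was at -0.03, -0.05 and -0.03.

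The other members at the ends of the distribution were of ordinary ribosomal function. Rps18, a 40S protein, had 104874 in Aspp1-/-p53-/-, 120280 in p53-/-, 124719 in Aspp1-/- and 130771 in WT, and its log2 difference from WT was -0.23, -0.14 and -0.14. Its second probe was at -0.12, -0.08 and -0.05.
Rps15, which is needed for export of the 40S subunit from the nucleus, had 59953 in Aspp1-/-p53-/-, 68849 in p53-/-, 77626 in Aspp1-/- and 67857 in WT. It was the highest member in Aspp1-/- against WT at 0.12 and the lowest of the 76 in Aspp1-/-p53-/- against Aspp1-/- at -0.21. Its second probe was at -0.0002 and -0.13 in these comparisons, so the higher value in Aspp1-/- was not seen on it. Rpl4, a 60S protein that lines the exit tunnel, had 73853, 72354, 71766 and 74994 in the same array order, and was the highest member in Aspp1-/-p53-/- against Aspp1-/- at 0.20 and against p53-/- at 0.14. Rpl4 has a single probe, as has Rpl5. Rpl7a was at -0.19 in Aspp1-/- against WT and -0.04 in p53-/- against WT. Rpl23a was the highest member in Aspp1-/-p53-/- against WT at 0.08 and in p53-/- against WT at 0.06 among genes measured on all 4 arrays, whereas its second probe was at -0.01 and -0.03. Rpl27a had signals of 145420 in Aspp1-/-p53-/-, 171785 in p53-/-, 177178 in Aspp1-/- and 165407 in WT. It was at -0.13 in Aspp1-/-p53-/- against p53-/-, among the 3 lowest there, and its further probes were at 0.06 and -0.02.
The double mutant was also set against the sum of both single differences. This non-additive term had a median of 0.058 over the 76 members, from -0.21 for Rps15 to 0.27 for Rpl4, beside -0.017 for the 19010 genes well above background on all 4 arrays. Its sign depends on the scaling: the member median was -0.004 under quantile normalization and -0.100 under spike-in scaling, where that of all genes was 0.004 and -0.175. The term includes the WT array.

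The paralogues were examined separately. Rpl3l is the muscle paralogue of Rpl3 and had a single, dim probe on chr17:24872413-24872681 (mm9 positions in the array file), plus strand, with no run of 30 bases in common with a probe of another gene name. The probe is printed because the only measured 2-fold difference of the family rests on it.
Rpl3l probe: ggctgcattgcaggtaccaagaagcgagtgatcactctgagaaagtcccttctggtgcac
Its processed signal was 39.3 in Aspp1-/-p53-/-, 99.1 in p53-/-, 95.4 in Aspp1-/- and 135 in WT, lowest in Aspp1-/-p53-/- and highest in WT, and well above background on each array. The log2 difference of Rpl3l was -1.69 (scanner error 0.29) in Aspp1-/-p53-/- against WT, a 3.22-fold lower level. It was -1.22 against p53-/- and -1.12 against Aspp1-/-, while the single mutants were at -0.47 (p53-/-) and -0.57 (Aspp1-/-) against WT. With normexp background correction, which lifts dim signals, the 3 values of Aspp1-/-p53-/- were -0.84 against WT, -0.58 against p53-/- and -0.45 against Aspp1-/-, and none passed 2-fold. The summed signal of the 6 granulocyte markers was also lowest on the Aspp1-/-p53-/- array, at 28024, against 79068 in p53-/-, 79070 in Aspp1-/- and 87041 in WT. That of the stromal markers Cxcl12 and Vcam1, with Col1a1 not well above background on any array, was 76.4 in Aspp1-/-p53-/-, 183 in p53-/-, 217 in Aspp1-/- and 354 in WT, and median log2 differences of the 2 genes from WT were -2.13, -1.01 and -0.78. The 9 immediate-early genes examined had medians of -1.36, -0.45 and -0.23 against WT in the same order. The part of these lists in the Rpl3l values was not tested. Rpl3 itself, at signals of 180921, 195919, 201442 and 200318 in the order Aspp1-/-p53-/-, p53-/-, Aspp1-/- and WT, was at -0.06 in each comparison with WT.

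Rpl10l, an autosomal retrogene of the X-linked Rpl10 known for its role in male meiosis, was detected on 1 array. Its signal was 5.86 in Aspp1-/-p53-/-, 405 in p53-/-, 5.02 in Aspp1-/- and 4.63 in WT. Only the p53-/- spot was well above background, so that the level there was at least 61.5-fold higher than in WT and that in Aspp1-/-p53-/- at least 33.0-fold lower than in p53-/-. These bounds set the p53-/- value against the lowest signal well above background on the other array, and they depend on the processing. Over 6 alternatives the log2 difference of p53-/- against WT ranged from 2.59 to 6.07. That of Aspp1-/-p53-/- against p53-/- ranged from -5.11 to -2.33. A second Rpl10l probe on the same chromosome was not well above background on any array, the p53-/- array included, so the 2 probes of the gene disagreed. Rpl10 had signals of 255202, 276429, 281355 and 283841 in the order Aspp1-/-p53-/-, p53-/-, Aspp1-/- and WT.

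Rps27l is a paralogue of Rps27 and a p53-inducible gene whose product takes part in control of Mdm2. Its signal was 21617 in Aspp1-/-p53-/-, 21814 in p53-/-, 25754 in Aspp1-/- and 24076 in WT, so both p53-deficient arrays were lower than both arrays with p53. The log2 difference was -0.07 in Aspp1-/-p53-/- against WT, -0.17 in p53-/- against WT and -0.09 when Aspp1-/-p53-/- was set against Aspp1-/-, all within the scanner's error of 0.20. Rps27 was at -0.08, -0.09 and 0.02 in the same comparisons. Rpl39l, a testis paralogue of Rpl39, had signals of 6.06 in Aspp1-/-p53-/-, 6.51 in p53-/-, 6.61 in Aspp1-/- and 12.4 in WT, none well above background, and Rpl39 was at -0.12, -0.09 and -0.10 against WT in Aspp1-/-p53-/-, p53-/- and Aspp1-/-. Rps4l is not analysed here.

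**Figure D4:**
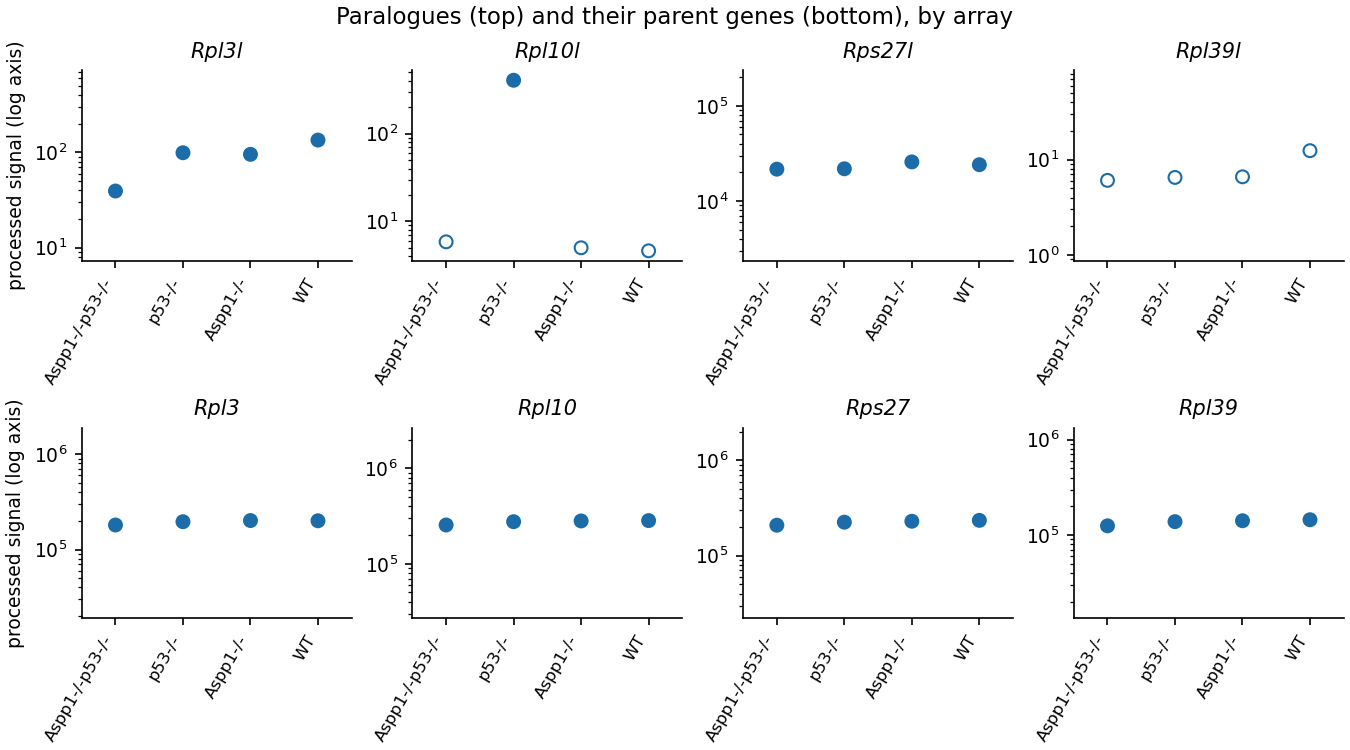
Processed signal (log axis, own range in each panel) of 4 paralogues (top) and of their parent genes (bottom) on the Aspp1-/-p53-/-, p53-/-, Aspp1-/- and WT arrays, 1 point per array. Filled points are well above background and open points are not: Rpl3l is lowest in Aspp1-/-p53-/-, Rpl10l is detected in p53-/- alone, and the parent genes are level.

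Further probes of the same genes gave a check within the arrays. For 55 genes, 101 further probes were well above background on all 4 arrays. The 81 of them with a mean scaled log2 level over 5 had median differences of -0.082 in Aspp1-/-p53-/- against WT, -0.056 in p53-/- against WT and -0.063 in Aspp1-/- against WT, and the 20 dimmer ones -0.052, -0.010 and 0.027. A single further probe departed from the brightest by over 0.5, a dim probe of Rps15a at 0.57 in Aspp1-/- against WT, where the bright probe was at -0.12. Many probes can also bind RNA of another locus. Of the 79 brightest probes, 28 (35.4%) shared an identical run of at least 30 bases with a probe listed under another gene name, in no case that of another member, and 7 had deposited positions on a chromosome other than that of their gene (among them Rpl3, Rpl28, Rpl36, Rps4x, Rps27 and Rps29). Signals of those genes may include transcripts of near-identical copies.

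The fit across all genes was an additive limma model (loss of Aspp1 plus loss of p53 on 4 arrays), which leaves 1 residual degree of freedom. It called 0 of 79 members for either loss at an adjusted p of 0.05, and 0 of 22802 genes (0% called). At an unadjusted p under 0.05 it held 0 members for loss of Aspp1, among 1090 genes (4.78%), and 0 for loss of p53, among 1704 genes (7.47%). The lowest adjusted p of a member in limma was 0.73 for loss of Aspp1 and 0.66 for loss of p53.

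Other genes of the ribosome pathway served as a comparison. Mitochondrial ribosomal proteins, encoded by 76 measured genes, had median differences from WT of 0.101 in Aspp1-/-p53-/-, 0.072 in p53-/- and 0.111 in Aspp1-/-, with 69, 68 and 68 of 76 above 0. None was past 2-fold, and the highest was Mrpl51 at 0.36 in Aspp1-/-p53-/-. Factors of ribosome biogenesis and RNA polymerase I (28 genes) had medians of 0.164, 0.083 and 0.183, with 24, 23 and 27 of 28 above 0, and again none past 2-fold. The highest in Aspp1-/- against WT was Nhp2, a protein of H/ACA ribonucleoproteins, at 0.35, and the lowest in Aspp1-/-p53-/- against WT was Tcof1, a nucleolar factor of rRNA synthesis, at -0.32. Of all genes, 49.4%, 46.7% and 49.0% lay below 0 in Aspp1-/-p53-/-, p53-/- and Aspp1-/- against WT. In the mitochondrial list the shares were 9.21%, 10.5% and 10.5%, and in the biogenesis list 14.3%, 17.9% and 3.57%. The medians of both lists stayed above 0 in all 3 comparisons with WT under quantile normalization. Spike-in scaling raises all genes by the same amount in each comparison with WT, so it could not bring these medians below 0. In Aspp1-/-p53-/- against Aspp1-/- the biogenesis factors had a median of -0.040 with 22 of 28 below 0 (51.8% of all genes), and a median of -0.014 with 16 of 28 below 0 under quantile normalization.
Both lists are mostly dimmer than the cytosolic members. Other genes at scaled log2 levels from 3 to 4 had medians against WT of 0.038 in Aspp1-/-p53-/-, 0.028 in p53-/- and 0.038 in Aspp1-/-. Those at levels from 4 to 5 had 0.037, 0.017 and 0.032. The shares below 0 were 37.4%, 38.8% and 37.2% at levels from 3 to 4, and 40.1%, 42.0% and 37.9% from 4 to 5. In Aspp1-/-p53-/- against Aspp1-/- the medians at these levels were -0.001 and -0.012. What brightness contributes to the values of both lists was not tested. Other translation genes known for a TOP start (17 genes, such as Eef2 and Pabpc1) had medians of -0.066 in Aspp1-/-p53-/-, -0.060 in p53-/- and -0.039 in Aspp1-/- against WT, which became 0.026, 0.004 and -0.013 under quantile normalization and -0.008, 0.067 and 0.050 under spike-in scaling. Rpl22l1, the paralogue of Rpl22 that lies outside the naming rule, was at -0.33 in Aspp1-/-p53-/- against WT, -0.23 in p53-/- against WT and -0.04 in Aspp1-/- against WT.

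**Figure D5:**
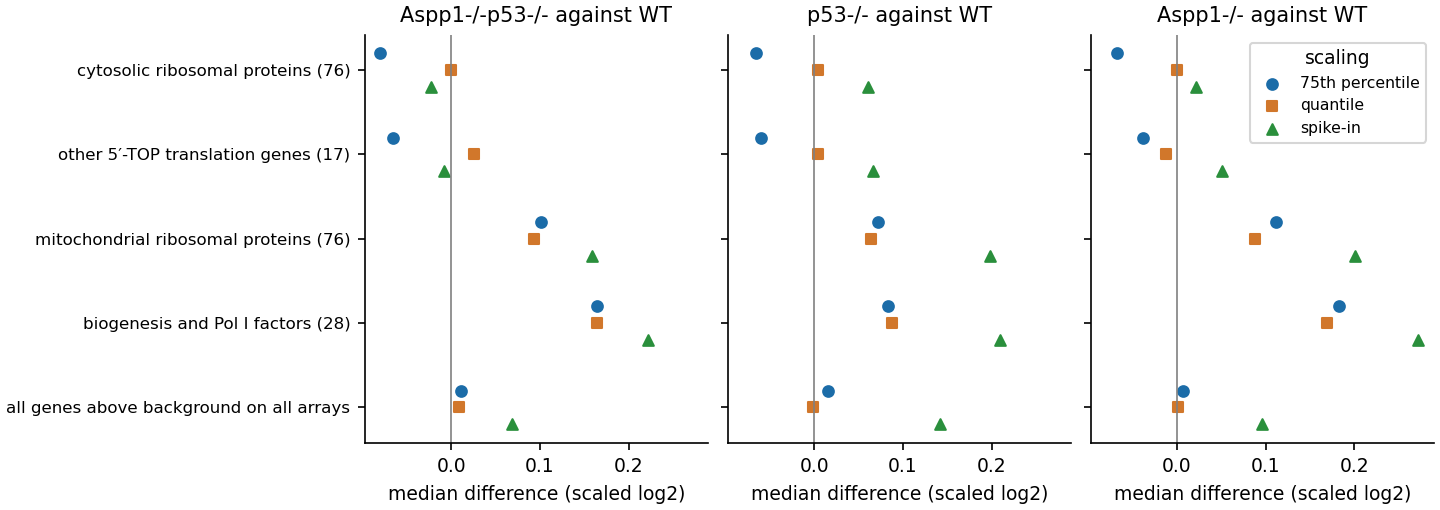
Median difference in scaled log2 signal of the 76 cytosolic members and of related lists in the 3 comparisons with WT under 75th-percentile scaling (circles), quantile normalization (squares) and spike-in scaling (triangles). The mitochondrial and biogenesis lists lie to the right of the cytosolic members under 75th-percentile scaling and quantile normalization. Spike-in scaling moves all lists of a panel by the same amount, so it keeps the distances seen under 75th-percentile scaling. The cytosolic medians change side of 0 between scalings for p53-/- and Aspp1-/- against WT.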

How the data were processed

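LSK cells of 4 genotypes were measured on 1-colour Agilent arrays, 1 array of RNA pooled from 3 mice per genotype. The authors deposited scanner files with processed intensity, mean intensity and background per spot, which the file headers credit to Feature Extraction version 10.7.3.1, and flags for outliers and for signals well above background. A deposited value table held log2 values per probe. Its differences between arrays matched those of the scanner signals with a slope of 1.00 over 26469 probes, and each probe was centred on its median. Its column medians were 0.0478 in Aspp1-/-p53-/-, 0.0267 in p53-/-, -0.0422 in Aspp1-/- and -0.0661 in WT. Its scale and direction are therefore known, and its normalization is not stated.

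Control spots and outliers were dropped, repeated spots of 1 probe were averaged, and log2 processed signals were set to each array's 75th percentile. Genes took their brightest probe, and a difference counted at 2-fold. Values not well above background gave bounds. limma 3.58.1 in R 4.3.3, tested on simulated data, fitted the additive model with Benjamini-Hochberg adjustment. Start-site sequences came from RefSeq. Members, lists and tests were chosen with earlier results of these data known. Genes named were those past 2-fold, the 3 highest and lowest per comparison, and members of the role lists. Alternatives covered background correction, scaling, probe choice, the detection filter, the deposited table and the size rule. Precision is limited by the number of arrays. Values of a few single genes are not reported here.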

Additional observations from a re-analysis of the deposited data

How the results depend on the processing

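Across the alternatives run, 214 values stayed within the spread or within 1.5 times the main count and 52 did not, and none turned round a called value. No paired analysis was possible because each genotype had 1 array, and for the same reason no replicate could be left out. Quantile normalization gave member medians of 0.000 in Aspp1-/-p53-/- against WT, 0.00386 in p53-/- against WT and 0.000 in Aspp1-/- against WT, with 37, 29 and 37 members below 0. Scaling on the 5 brightest spike-in RNAs, chosen after seeing the data, gave medians of -0.022, 0.061 and 0.021 in those comparisons, with 7 members below 0 in p53-/- and 24 in Aspp1-/-, and -0.073 with 75 below 0 in Aspp1-/-p53-/- against p53-/-. It moved the median of genes detected on all arrays from 0.016 to 0.142 in p53-/- against WT. With normexp background correction, members past 2-fold were 0 in Aspp1-/-p53-/- against WT, 1 against p53-/- and 0 against Aspp1-/-. A filter for probes detected on each of the 4 arrays, which drops Rpl10l, left 0 in p53-/- against WT and 1 in the comparison of Aspp1-/-p53-/- with p53-/-. Genes past 2-fold in Aspp1-/-p53-/- against WT numbered 1692, against 572 with normexp, 435 with that filter and 3054 at 1.5-fold. In p53-/- against WT they numbered 1492, against 536, 207 and 2281, and in Aspp1-/- against WT 865, against 237, 99 and 1546. In Aspp1-/-p53-/- against p53-/- they numbered 1690, against 647 and 271, and against Aspp1-/- 1485, against 549, 302 and 2618. Leaving out members whose brightest probe lies on another chromosome, also chosen after seeing the data, kept each median within the spread. Differences of dim probes such as those of Rpl3l and Rpl10l are limited by signal over background, and the cause of these shifts was not tested.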
